A study of Mus musculus with 6 samples.

Results

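Fertilization and egg calcium genes are 8 genes whose products let a mouse egg bind and fuse with a sperm, close its coat to further sperm and read the calcium signal that starts development: Cd9, Cd81, Izumo1r, Astl, Itpr1, Cacna1h, Trpm7 and Camk2g. They were taken by symbol from a table of 25239 genes, which holds all 8. The set was chosen with earlier results of these data known.

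The data are 6 libraries of single oocytes at the GV stage, named for the germinal vesicle, the nucleus that stays intact while meiosis is arrested. All came from CD-1 mice, an outbred stock, given as females 4 to 6 weeks old. Cumulus-oocyte complexes from antral follicles were microinjected with water (3 libraries) or with a mixture of phthalate metabolites (3 libraries), kept in maturation medium with serum and follicle-stimulating hormone, and sampled as GV oocytes. Both groups therefore share the injection and the culture, and uninjected oocytes are not analysed here. Phthalates are plasticizers, and their metabolites are what the body makes of them. The members of the mixture and its dose are not given in the sources used here. Libraries were made with Smart-seq3, in which an oligo(dT) primer and template switching give full-length cDNA that is amplified by PCR. The comparison asks how the transcripts of the oocyte differ after injection of the mixture.

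The labels name no animal or culture for a library, so each group counts as 1 sample. The protocol mentions 1 oocyte for each group without stating how the 3 libraries relate to it, so their spread may be technical. No difference was tested, and no p-value is given. Values are shown for each library (called an oocyte after its title), and a group ratio is the ratio of counts summed over the 3 oocytes of each group, with a 95% interval that covers counting error only. The spread between the oocytes of a group stands beside each ratio. Library totals ranged from 252267 to 300917 gene counts.

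The egg membrane carries CD9, a tetraspanin without which eggs bind sperm but rarely fuse with them, and CD81, a related tetraspanin with a partly shared role. The receptor that sperm IZUMO1 binds is JUNO, the product of Izumo1r. After fusion, sperm phospholipase C zeta produces IP3, IP3 receptors release calcium from the endoplasmic reticulum, and calcium enters through plasma membrane channels to refill the stores. CaMKII gamma reads the calcium rises and releases the egg from its second meiotic arrest, while cortical granules release ovastacin, the product of Astl, which cleaves the coat protein ZP2. A GV oocyte is not yet fertilizable and accumulates the transcripts from which these proteins are made.

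The 8 genes differed widely in level, and 2 of them, Cd9 and Cacna1h, were more than 2-fold lower in the phthalate oocytes. Their levels in CPM (counts scaled to a library total of 1000000) averaged 89.2 and 89.0 after water and 40.2 and 40.6 after phthalate. None of the 5 others with a ratio reached 1.5-fold in either direction, and Cd81 had too few counts for a ratio. Of 4644 genes that passed a filter on low counts, 15.1% differed by 1.5-fold or more between the groups and 8.14% were that much lower after phthalate. Over the 6 members that passed this filter, 3 log2 ratios of phthalate over water were above 0 and 3 below, with a median of 0.01, and the median over the filtered genes was also 0.01. The median of so few genes was not stable, at -0.18 without phthalate oocyte 3 and -0.03 without phthalate oocyte 2. With Trpm7, which did not pass, the median over 7 genes was -0.12, the value of Trpm7 itself. Astl, Camk2g and Izumo1r were abundant in all 6 oocytes, and Itpr1 was moderate in CPM, before any allowance for its length. Trpm7 was near the limit of counting and Cd81 had 1 count in all.

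**Figure D1:**
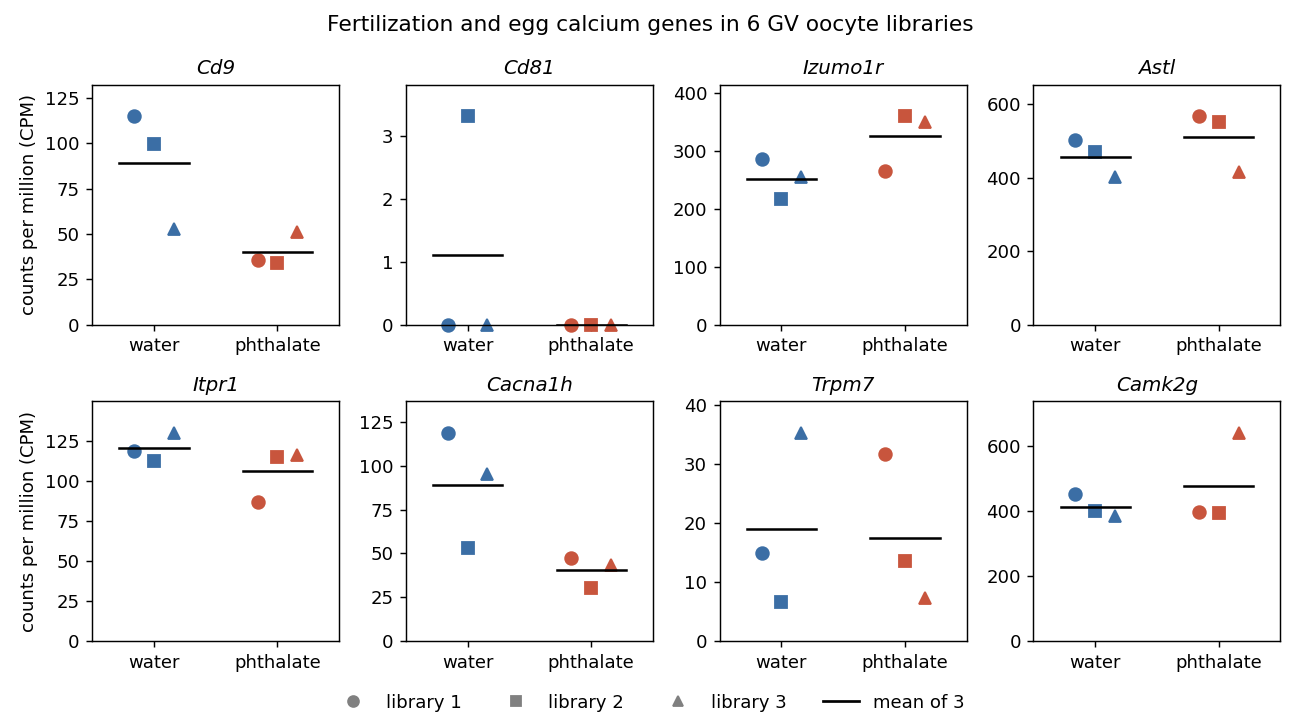
CPM of the 8 genes in each oocyte, with water oocytes in blue, phthalate oocytes in red, a symbol for each library number and a line at the mean of 3. Each panel has its own axis from 0. The phthalate values of Cd9 and Cacna1h lie below the water values, by a narrow margin at the nearest pair, and the values of the other genes overlap between the groups.

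The promoters of 3 genes of the sperm-binding surface are shown because these genes stand at very different levels in the oocytes. RefSeq promoter entries (build GRCm38.p6, 250 bases before to 50 bases after the transcript start) existed for 5 of the 8 genes, Cd9, Cd81, Izumo1r, Astl and Trpm7. Itpr1, Cacna1h and Camk2g had none. The promoters below lie at chr6:125494711-125495010 (minus strand) for Cd9, chr7:143052500-143052799 (plus strand) for Cd81 and chr9:14903718-14904017 (minus strand) for Izumo1r. Capitals mark matches, on either strand, to GGGCGG (the GC box), TATAAA (the TATA box) or CAGGTG (a form of the E-box).
Cd9: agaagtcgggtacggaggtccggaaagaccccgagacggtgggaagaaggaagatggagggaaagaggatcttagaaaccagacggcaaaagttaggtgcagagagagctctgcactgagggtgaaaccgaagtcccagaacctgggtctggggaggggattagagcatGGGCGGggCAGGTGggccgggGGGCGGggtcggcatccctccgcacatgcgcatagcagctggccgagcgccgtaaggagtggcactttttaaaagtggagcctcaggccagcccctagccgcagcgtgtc
Cd81: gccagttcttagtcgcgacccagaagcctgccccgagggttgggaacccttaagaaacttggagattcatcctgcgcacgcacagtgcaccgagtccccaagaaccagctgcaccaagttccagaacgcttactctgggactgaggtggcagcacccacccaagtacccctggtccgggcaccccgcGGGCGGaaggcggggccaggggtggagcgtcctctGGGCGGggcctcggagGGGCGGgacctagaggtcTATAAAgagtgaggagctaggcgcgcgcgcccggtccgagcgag
Izumo1r: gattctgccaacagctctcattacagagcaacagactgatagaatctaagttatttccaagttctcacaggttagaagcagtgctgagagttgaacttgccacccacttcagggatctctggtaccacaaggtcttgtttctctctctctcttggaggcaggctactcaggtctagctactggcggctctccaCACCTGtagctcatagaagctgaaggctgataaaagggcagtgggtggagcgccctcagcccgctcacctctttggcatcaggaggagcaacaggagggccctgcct
Cd9 had 2 GC boxes and 1 CAGGTG, Cd81 had 3 GC boxes and 1 TATAAA, and Izumo1r had 1 CAGGTG (read as CACCTG) and 0 GC boxes. Among 32851 promoter windows of 300 bases, 35.7% held GGGCGG, 13.6% held TATAAA and 20.2% held CAGGTG on either strand. CCAAT (37.4% of windows) and TAATTG (8.0%), which are bound by NF-Y and by NOBOX, matched in none of the 3. Of the promoters not printed, that of Trpm7 held none of the 5 motifs, and of 2 entries for Astl 1 held 3 CAGGTG and the other none of the 5. The GC content was 61.3% for Cd9, 65.7% for Cd81 and 52.3% for Izumo1r, against a median of 52.7% over all windows. These are matches of letters, not shown sites, and the tetraspanins share the GC boxes although their counts in the oocytes were far apart.

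Cd9 (chr6:125460266-125494791, minus strand) had 31, 30 and 15 counts after water injection and 9, 10 and 14 after phthalate injection (oocytes 1, 2 and 3 of each group, in that order throughout). In CPM this was 115, 99.7 and 52.9 against 35.7, 33.9 and 50.9. All 3 phthalate oocytes lay below all 3 water oocytes, but phthalate oocyte 3 was almost level with water oocyte 3. The sums were 76 counts after water and 33 after phthalate, a log2 ratio of -1.13 (95% interval -1.77 to -0.52), or 2.19-fold higher in water. The highest water oocyte was itself 2.18-fold above the lowest, so the difference between the groups was about as large as the spread within the water group. With totals scaled by TMM factors, which correct for composition, phthalate oocyte 3 (54.5) passed water oocyte 3 (52.9) and the groups overlapped, as they did with DESeq2 size factors and with ERCC scaling. On the TMM scale 10.1% of all filtered genes showed no overlap.

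Cacna1h (chr17:25374285-25433783, minus strand) encodes the T-type calcium channel CaV3.2, which carries calcium into mouse oocytes and eggs. It had 32, 16 and 27 counts after water and 12, 9 and 12 after phthalate, or 119, 53.2 and 95.1 CPM against 47.6, 30.5 and 43.6. Every phthalate oocyte lay below every water oocyte, with the smallest gap between water oocyte 2 and phthalate oocyte 1. The sums of 75 and 33 counts gave a log2 ratio of -1.11 (-1.75 to -0.50), a level 2.16-fold higher in water. Water oocyte 1 stood 2.23-fold above water oocyte 2, again as far apart as the groups. The groups stayed apart under TMM scaling, DESeq2 size factors, totals without the ribosomal precursor Rn45s and scaling to ERCC spike-ins. Under ERCC scaling the margin was narrow, at 66.8 in water oocyte 1 against 64.6 in phthalate oocyte 3. ERCC counts were few, from 292 to 753 in a library, and water oocyte 1 had the most.

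These 2 ratios have to be read against all genes at this depth. Cd9 and Cacna1h, with mean counts of 18.2 and 18, belong to the 1860 filtered genes with a mean count under 20, of which 14.2% were at least 1.5-fold lower. The central 90% of log2 ratios in that class ran from -0.87 to 0.82, and both genes lay below it. The CPM values of the groups did not overlap for 10.0% of the 4644 genes, and 3.19% were both 1.5-fold lower and without overlap. Cd9 and Cacna1h reached the filter through the water oocytes, with 3 of 3 at or above its limit of 35.8 CPM, against 1 and 2 phthalate oocytes. Their counts are few, and if each read pair was counted as 2, the intervals widen to -2.06 to -0.26 for Cd9 and -2.04 to -0.24 for Cacna1h.

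**Figure D2:**
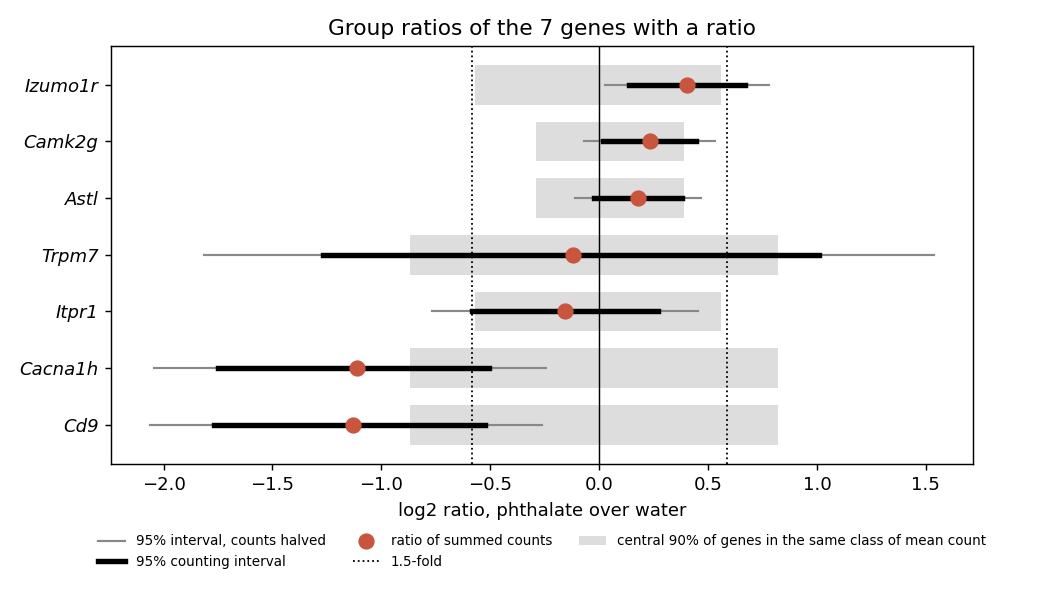
Log2 ratio of summed counts, phthalate over water, for the 7 genes with a ratio (points), with the 95% counting interval (thick line), the interval on halved counts (thin line) and the central 90% of genes in the same class of mean count (grey bar). Dotted lines mark 1.5-fold. Cd9 (-1.13) and Cacna1h (-1.11) lie outside their grey bars, and the ratios of Trpm7, Itpr1 and Astl lie well within theirs.

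RNA of cumulus cells, which surround the oocyte and carry tetraspanins of their own, was followed by 20 cumulus and granulosa markers. They had 37, 23 and 13 counts after water and 19, 26 and 10 after phthalate. Of these, Nr5a2 had 64 of the 73 counts after water and 39 of the 55 after phthalate, and 11 of the 20 markers, Amh, Foxl2 and Gja1 among them, were at 0 in every library. Within the water group the marker counts fell in the same order as the CPM of Cd9, with oocyte 1 highest and oocyte 3 lowest in both. Without Nr5a2 the other 19 markers had 5, 0 and 4 counts after water and 3, 11 and 2 after phthalate, and the water counts did not follow that order. Within the phthalate group the order of the marker counts, with Nr5a2 or without, was the opposite of that of Cd9, with oocyte 2 highest in marker counts and lowest in Cd9. Of 10 markers of theca, blood, immune, vessel and stromal cells, 8 were at 0, and Pecam1 had 45 counts after water and 32 after phthalate. Oocyte markers were abundant throughout, with 6006 to 7672 counts over 11 genes in a library. What part RNA of other cells had in the ratio of Cd9 was not tested.

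**Figure D3:**
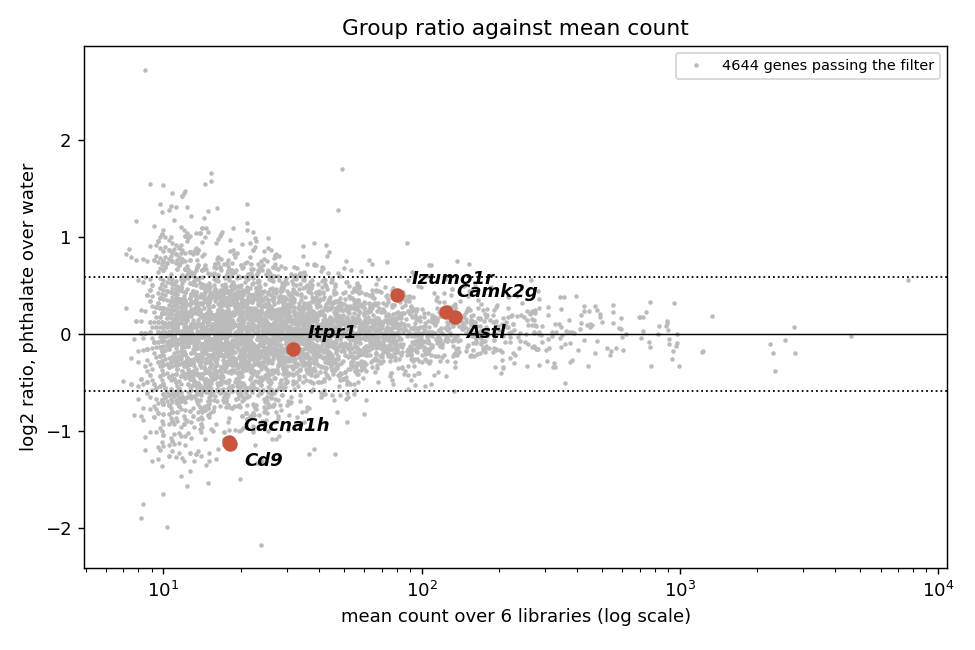
Log2 ratio, phthalate over water, against mean count over the 6 libraries (log axis) for 4644 genes (grey), with the 6 fertilization and egg calcium genes that passed the filter in red. Ratios spread most at low counts, where Cd9 and Cacna1h lie below the dotted line at 1.5-fold and above the most extreme genes of similar count.

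Cd81 (chr7:143052739-143067934, plus strand) was almost not counted. It had 0, 1 and 0 counts after water and 0, 0 and 0 after phthalate, so no ratio is given. In the phthalate group the count of 0 allows up to 3 counts over the 3 libraries, or 3.65 CPM. Per kilobase, Cd9 made up 99.1% of the tetraspanin pair in the summed water counts and 100% in the phthalate counts, where Cd81 was at 0. The Cd9 transcript thus outnumbered that of Cd81 in both groups, also where Cd9 was low.

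Izumo1r (chr9:14885814-14903949, minus strand) had 77, 65 and 72 counts after water and 67, 106 and 96 after phthalate. Its CPM was 286, 216 and 254 against 266, 359 and 349. Phthalate oocytes 2 and 3 were above all water oocytes, while phthalate oocyte 1 lay among them. The log2 ratio was 0.40 (0.14 to 0.67), a 1.32-fold higher sum in the phthalate group, and the highest and lowest oocytes within each group differed by as much (1.32-fold in water and 1.35-fold in phthalate). The receptor and the tetraspanin of the egg membrane thus had ratios of opposite sign.

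Astl (chr2:127338639-127357651, plus strand) encodes ovastacin, the metalloprotease of the cortical granules. Its counts were 135, 141 and 114 after water and 143, 163 and 114 after phthalate, and its CPM was 501, 469 and 402 against 567, 552 and 415. The groups overlapped, and library 3 was the lowest of each. The log2 ratio was 0.18 (-0.02 to 0.38), with 390 counts after water and 420 after phthalate. Both ends of the interval lay within 1.5-fold, also on halved counts (-0.11 to 0.47).

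Itpr1 (chr6:108213096-108551109, plus strand) encodes IP3 receptor type 1, the receptor held to carry most of the calcium release at fertilization in mouse eggs. It had 32, 34 and 37 counts after water and 22, 34 and 32 after phthalate, or 119, 113 and 130 CPM against 87.2, 115 and 116. Phthalate oocyte 1 was the lowest, and the groups overlapped. The log2 ratio was -0.15 (-0.58 to 0.27), from sums of 103 and 88 counts.

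Trpm7 (chr2:126791565-126876230, minus strand) encodes a channel for divalent ions fused to a kinase, one of the routes of calcium entry into eggs. Its 4, 2 and 10 counts after water and 8, 4 and 2 after phthalate summed to 16 and 14. The log2 ratio of -0.12 had an interval from -1.27 to 1.01, so a 1.5-fold difference in either direction was not detectable at this depth. Within the water group alone the highest oocyte was 5.30-fold above the lowest. The ratio was 0.72 without water oocyte 3 and -0.80 without phthalate oocyte 1. Trpm7 did not pass the filter.

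Camk2g (chr14:20734875-20794088, minus strand) encodes the gamma form of CaM kinase II. It had 122, 120 and 109 counts after water and 100, 116 and 176 after phthalate, or 453, 399 and 384 CPM against 396, 393 and 640. The log2 ratio was 0.23 (0.02 to 0.44, or -0.07 to 0.53 on halved counts), and it came from phthalate oocyte 3. Without that oocyte the ratio was -0.09, since phthalate oocytes 1 and 2 lay within the range of the water oocytes.

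Levels of different genes were compared per kilobase of exon sequence (the union of annotated exons in GENCODE M21, build GRCm38). In the water oocytes the order was Astl (179 CPM per kb ± 19.8, SD over 3 oocytes), Izumo1r (109 ± 15.04), Camk2g (64.3 ± 5.64), Cd9 (43.6 ± 15.8), Cacna1h (9.12 ± 3.40), Itpr1 (6.59 ± 0.484), Trpm7 (1.67 ± 1.30) and Cd81 (0.385 ± 0.666). Neighbours whose oocytes overlapped in value were Cacna1h with Itpr1, and Trpm7 with Cd81. Astl lay above 93.4% of the filtered genes with a known length, Izumo1r above 89.1% and Camk2g above 81.6%. In the phthalate oocytes the first 4 kept their places, at 200 ± 32.8, 140 ± 22.2, 74.5 ± 22.1 and 19.7 ± 4.58 CPM per kb. Cd9 was above 73.4% of those genes after water and above 49.8% after phthalate. Itpr1 was above 12.4% after water and 10.6% after phthalate, and Cacna1h above 20.7% and 4.96%. Itpr1 (5.80 ± 0.902) and Cacna1h (4.16 ± 0.916) stood in the reverse order after phthalate, with overlapping oocytes, followed by Trpm7 (1.55 ± 1.12) and by Cd81 at 0. The order depended on the length used. With the median transcript in place of the exon union, Camk2g came first in the water group (612 CPM per kb), before Izumo1r (230) and Astl (204), and Itpr1 (129) stood above Cd9 (98.7). Astl then lay above 80.7% of the filtered genes and Itpr1 above 69.5%. With the longest transcript, Izumo1r (195) and Astl (192) changed places in the water group and overlapped.

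**Figure D4:**
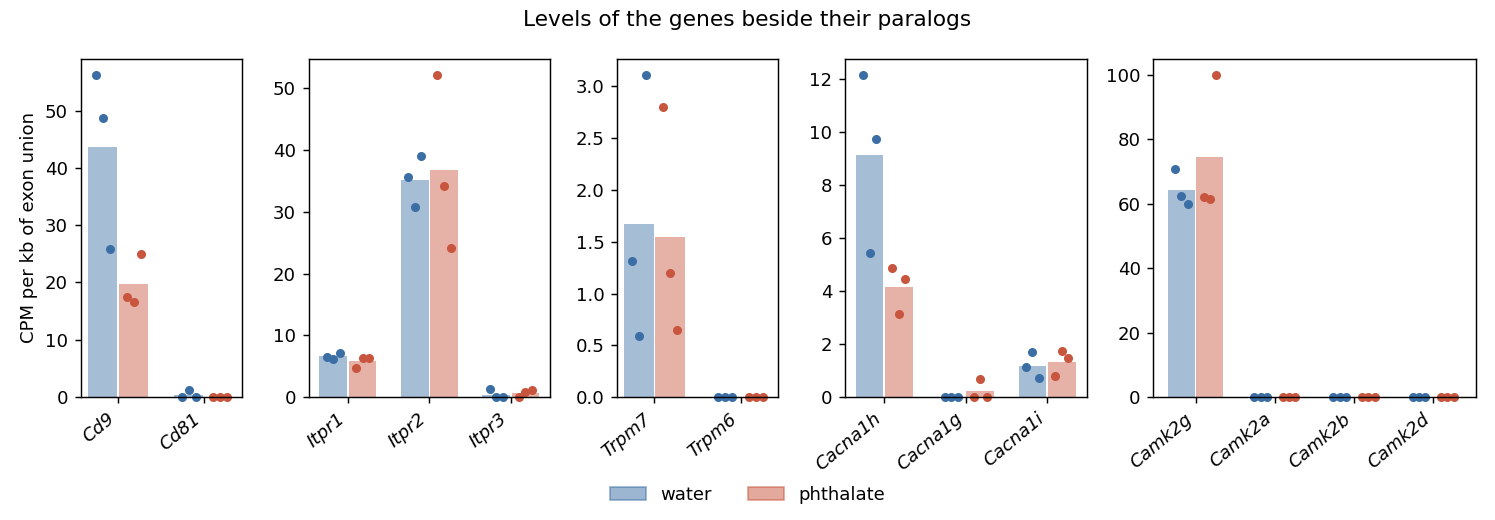
CPM per kilobase of exon union for 5 of the genes beside their paralogs, with a bar at the mean of 3 oocytes, a point for each oocyte, water in blue and phthalate in red. Each panel has its own axis from 0. Itpr2 stands above Itpr1 in every oocyte, and Camk2g is the only CaM kinase II gene with a count.

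Among the paralogs of these genes, the IP3 receptors stood out. Itpr2, which encodes the type 2 receptor, had 142, 137 and 164 counts after water and 195, 149 and 98 after phthalate, more than Itpr1 in each of the 6. Per kilobase its summed level was 5.32-fold that of Itpr1 after water and 6.22-fold after phthalate. Itpr1 made up 15.7% of the 3 receptor transcripts after water and 13.6% after phthalate, ranging from 8.35% to 20.1% over the oocytes. Its share depended on the length used, at 21.4% after water and 18.8% after phthalate with the longest transcript, and 27.1% and 24.1% with the median transcript. Itpr3 had 3 and 5 counts. Itpr1 is the longest of the 8 genes by exon sequence (18.3 kb).

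Camk2g was the only CaM kinase II gene found, with 743 counts over the 6 libraries and 0 for Camk2a, Camk2b and Camk2d. Set against the limit of 3 counts, its level per kilobase was at least 289-fold higher than that of Camk2a, at least 353-fold higher than that of Camk2b and at least 870-fold higher than that of Camk2d. These bounds differ only through the exon lengths (7465, 9125 and 22493 bases) and do not rank the genes at 0. Trpm6, the closest relative of Trpm7, also had 0 counts, so Trpm7 was at least 6.82-fold higher. If each read pair was counted as 2, these bounds fall to 144-, 177- and 435-fold for Camk2g and to 3.41-fold for Trpm7. Among T-type channel genes, Cacna1h made up 88.3% of the level per kilobase after water and 72.0% after phthalate, with Cacna1i at 10 and 11 counts and Cacna1g at 0 and 2. Its share overlapped between the groups, from 76.4% to 93.2% after water and from 56.7% to 85.8% after phthalate.

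Of the other genes of these pathways, 5 lists with 85 genes in the table were followed, and 31 of the genes passed the filter. Their median log2 ratio was 0.00, with 16 above and 15 below 0, beside 0.01 for all 4644 genes. A 1.5-fold ratio was reached by 4 of them (12.9%, against 15.1% of all filtered genes). Egg surface and fusion genes numbered 4 after the filter, of which 3 had a ratio below 0 and none reached 1.5-fold. The integrin subunits Itga9 (-0.50, -0.82 to -0.18) and Itga6 (-0.37, -0.72 to -0.01) were lower in the phthalate sums, and Itgb3 (0.39, -0.23 to 1.03) was higher. On halved counts the interval of Itga6 ran from -0.88 to 0.14. Itga6 had 178, 179 and 204 CPM after water and 123, 169 and 135 after phthalate, without overlap. Of the 31 genes, 3 had groups without overlap (9.68%, against 10.0% of all filtered genes). The other two, named after their values were seen, were Slc39a10, which encodes a zinc transporter and had a lower sum after phthalate (-0.31, -0.66 to 0.03), and Fetub, which encodes the ovastacin inhibitor fetuin-B and had a higher sum (0.37, 0.05 to 0.70, or -0.09 to 0.85 on halved counts). The nearest oocytes of Fetub were almost level (186.1 CPM after water and 186.4 after phthalate), and its groups overlapped under TMM, DESeq2 and ERCC scaling, tried after seeing the data. Those of Itga6 and Slc39a10 overlapped under ERCC scaling, through water oocyte 1 alone, and stayed apart under the other scalings tried.

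Cortical granule and coat genes numbered 12 after the filter, with a median ratio of 0.01. Zp1 (0.02) and Zp3 (0.05), which encode coat proteins, were near 0, and Zp2, which encodes the coat protein that ovastacin cleaves, had a ratio of -0.33 (-0.44 to -0.21). Zp2 had 482, 548 and 472 counts after water and 264, 363 and 513 after phthalate, so the groups overlapped through phthalate oocyte 3. Snap23, which encodes a membrane fusion protein of exocytosis and is named for its ratio, was the 1 gene past 1.5-fold (-0.60, -1.29 to 0.07), from 51 and 32 counts.

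Genes of calcium stores and release numbered 8 after the filter, with a median of -0.07. The most counted were Itpr2 (0.07), Mcu (0.10), the channel of the mitochondrial calcium uniporter, and Atp2a2 (-0.21), the pump that fills the endoplasmic reticulum. Erp44 (-0.72, -1.54 to 0.08) was past 1.5-fold and is named for its ratio.

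Genes of calcium entry and export were mostly at few counts, and 2 of 15 passed the filter. Atp2b1, which encodes a calcium pump of the plasma membrane, had a ratio of 0.53 (0.14 to 0.93, or -0.03 to 1.11 on halved counts). Orai1, a channel of store-operated entry, had a ratio of -0.43 (-1.15 to 0.26). Atp2b3, another plasma membrane calcium pump and the next by counts, had 11 counts after water and 16 after phthalate and did not pass. Of 22 calcium sensors and egg activation genes, 5 passed. Calm2 (0.05), which encodes calmodulin, and Wee2 (-0.05), a kinase gene needed for exit from the second arrest, were near 0. Ppp3r1, the regulatory subunit of calcineurin, was 1.5-fold or more higher (1.05) and is named for its ratio, which came with 40 counts in phthalate oocyte 2 against 13 and 14 in phthalate oocytes 1 and 3. Sperm-side genes were a check on the libraries. Of 12, 9 had 0 counts in every library, among them Izumo1 and Plcz1, and the list summed to 8 counts after water and 16 after phthalate. These were Spam1 (4 and 8), Zp3r (0 and 5) and Dcst2 (4 and 3).

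For the 4 genes that averaged 20 counts or more, the gene most alike over the 6 oocytes was found by the root-mean-square difference of centred log2(CPM + 1), among 2783 genes. It was Hmces for Itpr1 (difference 0.040, against a spread of 0.18 of Itpr1 itself), Tm2d3 for Astl (0.062 against 0.19), Nprl2 for Izumo1r (0.084 against 0.26) and Gm2042 for Camk2g (0.087 against 0.26). The likeness is a description of these 6 libraries.

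Counting without regard to strand, which the sources used here do not settle, would add reads of overlapping genes. GENCODE M21 places no gene over Izumo1r, Astl or Camk2g. Tpsg1 overlaps Cacna1h and had 0 counts, as did R74862 over Cd81. The overlapping genes Gm28809 and Gm26728 of Cd9, on the opposite strand, have no row of their own in the table, and their part in the Cd9 counts was not tested. The same holds for Gm44101 and Gm44040 on the opposite strand of Itpr1, Gm27813 on its own strand and Gm14212 on the opposite strand of Trpm7. Mir7661, within Itpr1, had 0 counts.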

How the data were processed

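The deposited values are raw whole-number counts for each gene symbol, with 92 ERCC spike-in rows that were kept out of totals. The submitters' processing notes name cutadapt, Trimmomatic, HISAT2 and DESeq2 and the build mm10, without roles. The counting tool, its annotation, and the use of strand and of molecular identifiers are not given in the sources used here. Even values made up 68.0% to 71.1% of counts from 1 to 20 in a library, so both mates of a pair may be counted, and intervals on counts as deposited are then too narrow.

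CPM was computed on library totals. Genes were filtered with filterByExpr (minimum count 10, minimum total count 15; edgeR 4.0.16, R 4.3.3). Ratios are summed counts over totals scaled by TMM factors, with no pseudocount and an exact (Clopper-Pearson) 95% interval. The calculation was run on simulated independent Poisson counts. These held no paired mates and no added spread between libraries, so the run checks the code and not the width of the intervals on these data. Genes with at most 3 counts in each group got no ratio. PCR copies are not independent molecules. No library was a copy of another (chi-square per degree of freedom 1.17 to 2.32 between libraries of a group, on halved counts). Lengths came from GENCODE M21 and promoters from RefSeq.

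No test was made, because the labels name no animal or culture. The members and lists were chosen with earlier results of these data known. Every member is named, with the 3 most counted genes of each list, those past 1.5-fold with a mean count of at least 20, and the paralogs; genes said to be named for their ratio were chosen after their values were seen. Some genes of the lists count in the totals and are not reported here by name. The lists were egg surface and fusion, cortical granules and block to polyspermy, calcium stores and release, calcium entry and export, calcium sensors and egg activation, and sperm-side genes, with oocyte, cumulus and granulosa, and other cell markers. Alternatives were other scalings, filters, lengths and thresholds, halved counts, means in place of sums, and each library left out.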

Additional observations from a re-analysis of the deposited data

How the results depend on the processing

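Leaving out each oocyte in turn gave log2 ratios, phthalate over water, from -1.39 to -0.94 for Cd9, from -1.38 to -0.87 for Cacna1h, from 0.30 to 0.53 for Izumo1r, from 0.10 to 0.26 for Astl, from -0.27 to -0.02 for Itpr1, from -0.80 to 0.72 for Trpm7 and from -0.09 to 0.39 for Camk2g, whose sign changed without phthalate oocyte 3 (-0.089). The sign of Trpm7 changed without water oocyte 3, phthalate oocyte 2 or phthalate oocyte 3 (0.72, 0.059 and 0.20). For Cacna1h, whose groups do not overlap, such a drop cannot change the sign. The number of genes past 1.5-fold was then from 2 to 3, the third being Trpm7. Of the other thresholds tried, it was 2 at 2-fold and 3 at the one below 1.5-fold, where the third was Izumo1r (0.40). The median log2 ratio over the members that passed the filter (0.01) ran from -0.18, without phthalate oocyte 3, to 0.05 when oocytes were left out, and was -0.11 with no filter, 0.13 under ERCC scaling and 0.20 at a mean count of at least 20, which leaves 4 members. The 8 other alternatives to the group ratio kept the sign of all 7 ratios. The widest shift came from ERCC scaling, which moved the median of all genes from 0.01 to 0.12 and gave -1.02 for Cd9 and -0.997 for Cacna1h.

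The 2 genes without overlap between groups became 1 under TMM scaling, DESeq2 size factors and ERCC scaling, which were added after seeing the data, and 0 at a mean count of at least 20, since neither reaches that mean. By median transcript length 3 of 8 genes kept their place in the level order after water and 4 after phthalate. By the longest transcript, also added later, 4 kept it after water and 6 after phthalate. No paired analysis was possible because the results come from no test and the labels pair no oocytes. Depth limits Trpm7 and Cd81 most, at 30 counts and 1 count.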
